A study of Homo sapiens with 18 samples.

Results

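The 3 libraries labelled XG1 and the 3 libraries labelled AMO1 that received only DMSO, the solvent control, were compared across all genes. These are 6 of the 18 libraries of the series, chosen by the cell line and treatment in their labels and not by any measured value. Both names belong to human multiple myeloma cell lines, that is, cultures grown from cancers of antibody-secreting plasma cells. The series tested YKL-5-124, a covalent inhibitor of the kinase CDK7, in lines that its title calls resistant. Cells of each line were grown in multiwell plates in RPMI medium with serum and were exposed to DMSO or to 100 or 1000 nM of the compound for 6 h, with 3 libraries per group. Neither DMSO group received the inhibitor, and the labels name no genetic change in either line. Expression is in FPKM (fragment counts adjusted for the length of the transcript and the scale of the library) from libraries that read the 3′ ends of transcripts. In the deposited values gene totals differ between libraries, while added spike-in RNAs are nearly level. The values of 3 libraries are given in the order of the replicate numbers, means are given ± SD (n = 3), and differences are XG1 minus AMO1 on the log2(FPKM + 1) scale ± SE, a scale that understates differences of low genes. A gene is called when its adjusted p from limma over the 12204 genes tested lies under 0.05. The labels do not say that replicates came from separate cultures, so the p values reflect library to library spread alone, and that spread may be technical.

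Red cell precursors and plasma cells are far apart in the blood system. In the erythroid lineage the transcription factors GATA1, KLF1 and TAL1 switch on globin, heme and red cell membrane genes. Plasma cells arise from B cells under IRF4, PRDM1 (BLIMP1) and XBP1, enlarge the secretory pathway, and carry SDC1 (CD138) and TNFRSF17 (BCMA) on their surface. MHC class II genes depend on the coactivator CIITA and are shut down in most normal plasma cells.

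The label of the first group went against its markers. Of 10 plasma cell markers, 9 were at or above 10 FPKM in all 3 AMO1 libraries. In all 3 libraries labelled XG1 only XBP1 was at that level, SDC1 reached it in 2 of them (12.6, 14.1 and 9.73 FPKM), and 4 markers were under 1 FPKM in each of them. The summed level of these markers was 73.2 to 78.1 FPKM under the XG1 label and 5215 to 7246 FPKM in AMO1. Of 12 erythroid markers, 8 reached that level throughout the libraries labelled XG1 and 0 in AMO1, with summed levels of 3031 to 3278 FPKM and 5.22 to 10.9 FPKM. The lists for B cells, megakaryocytes, granulocytes and monocytes, mast cells, and T and NK cells had 0 of 8 markers each at that level in all 3 libraries labelled XG1. The longer gene lists for these lineages hold 6 genes outside the markers that did reach it in all 3, namely CD33, FCGR1A and ITGAM of granulocytes and monocytes, GATA2, GP1BB and CD7, described below with their lists. Of 8 epithelial and stromal markers, EPCAM and KRT18 reached it. The group is therefore called the libraries labelled XG1 throughout, and every difference below is between the cultures as labelled. In such bulk libraries fewer cells of a type and less RNA per cell cannot be told apart.

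The 6 libraries had 9861 to 10571 genes at 1 FPKM or more each. Log2 values correlated across 10888 genes at 0.955 to 0.969 within a line and at 0.724 to 0.759 between the lines. Summed over genes, FPKM came to 771880 to 957143 under the XG1 label and to 1649175 to 1896255 in AMO1, while the added ERCC spike-in RNAs summed to 113373 to 115853 in all 6. The values thus share a spike-in level and not a gene total, and the larger total of AMO1 enters every difference. Across 44 abundant spike-ins, synthetic RNAs that should not differ, the difference between the lines had an SD of 0.535 log2 and a median of -0.094, beside a median SD within a line of 0.101 and 0.148. Replicate spread therefore understates the error of a difference between the lines. Sequencing depth is unknown, since the values are not counts.

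Of the 12204 genes, 7652 (62.7%) were called. They divide into 3458 (28.3%) higher and 4194 (34.4%) lower in the libraries labelled XG1, and 1784 (14.6%) were higher and 2373 (19.4%) lower by 2-fold or more. The median over all genes tested was -0.08. With so many calls, a share of called genes near these values is not particular to a list. A gene was tested if any group mean reached 1 FPKM. A list gene at the floor in 1 line was thus tested only if the other line expressed it, which favours a call. The largest differences in favour of the XG1 label were in GYPB, a red cell glycophorin (9.13), and the fetal globin gene HBG1 (8.72). They were followed by HINT1, which encodes a nucleotide hydrolase (8.60), the neuropeptide gene GAL (8.45) and the imprinted gene DLK1 (8.44). GAL was at 588, 545 and 459 FPKM under the XG1 label and at 0.439, 0.126 and 1.13 FPKM in AMO1. HINT1 was at 1815, 1812 and 1959 FPKM against 1.66, 9.42 and 2.95 FPKM, so a gene active in most cell types was near the bottom of the scale in AMO1. At the other end stood the cancer-testis antigen gene CTAG2 (-9.04), HLA-DRA of MHC class II (-8.37), the antibody joining chain gene JCHAIN (-8.32) and SDC1 (-8.25). CTAG2 was at 1.41, 1.68 and 1.64 FPKM under the XG1 label and 1461, 1634 and 1050.4 FPKM in AMO1. GPX1, a glutathione peroxidase that most cells express, was at 1.14, 0.714 and 0.494 FPKM against 379, 367 and 262 FPKM. Genes with overlapping groups were left out of this ranking, and 7947 of the 12204 genes tested (65.1%) showed no overlap. The plot of mean levels in the lines shows most abundant genes near the diagonal and the lineage genes along its edges.

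The erythroid transcription factors were mostly on the XG1 side. Of 13 tested, 9 were higher and 2 lower, with a median difference of 1.83. GATA1 was at 29.9, 29.3 and 26.3 FPKM in the libraries labelled XG1 and at 0.118, 0.136 and 0.0965 FPKM in AMO1 (4.72 ± 0.15, adjusted p = 7.09e-16). KLF1, which drives globin genes, was at 54.8, 59.5 and 56.1 FPKM against 0.796, 0.823 and 0.900 FPKM (4.97 ± 0.21, adjusted p = 3.67e-14). TAL1, a partner of GATA1, was low but still separate, at 3.14, 2.51 and 3.20 FPKM against 0.115, 0.262 and 0.0948 FPKM. The groups did not overlap for any of these, which also held for 65.1% of all genes tested. NFE2, a globin and platelet regulator, was at 60.6 ± 5.94 FPKM against 0.417 ± 0.129 FPKM (5.44). LMO2 (4.68), the bridging protein of the GATA1 and TAL1 complex, GFI1B (4.04), a repressor of the same lineage, and HEMGN (3.68), a nuclear protein of erythroid cells, were higher with them. Lower under the XG1 label were ZBTB7A (-1.53), a repressor of fetal globin genes, and NFE2L2 (-1.45), the oxidative stress factor NRF2. ZFPM1, the GATA1 cofactor FOG1, was not called, at 0.678 ± 0.111 FPKM against 0.752 ± 0.830 FPKM.

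GATA factors bind short sites of A or T, then GATA, then A or G. The promoters of the identity genes were searched for the forms that end in A, AGATAA or TGATAA, on either strand. Sites that end in G were not searched, so the shares and capitals below cover a part of the possible sites. A window from 250 bases before to 50 after the start of each gene was taken from RefSeq for GRCh38.p14. Of the 200 genes with the largest differences in favour of the XG1 label, 128 had such a promoter and 26 of these (20.3%) held the motif. The share was 9 of 122 (7.38%) for the 200 largest on the AMO1 side and 765 of 9520 (8.04%) for all genes tested. The CACCC box (CCACACCC) was in 6.25%, 3.28% and 2.85% of the same sets. The E-box CAGATG was in 14.1% and 17.2% of the extreme sets and in 9.16% of all. The octamer ATGCAAAT was in 2.34%, 3.28% and 1.38%, and TGACGTGG, the core of an unfolded protein response element, in 0.781%, 0.82% and 0.924%. These shares describe letters in a window and not binding. Of the 25 identity genes 16 had a promoter in the table, and the 4 that held the GATA motif are given 5′ to 3′ along the strand of the gene, with the motif or its reverse complement in capitals, because they show where it lies.
KLF1 (chr19:12887152-12887451, minus strand): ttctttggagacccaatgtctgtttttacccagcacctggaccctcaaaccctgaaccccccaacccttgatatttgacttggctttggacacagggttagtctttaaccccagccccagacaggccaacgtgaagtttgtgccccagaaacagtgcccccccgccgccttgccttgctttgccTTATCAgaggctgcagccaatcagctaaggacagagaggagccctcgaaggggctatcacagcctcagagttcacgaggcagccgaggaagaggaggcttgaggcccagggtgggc
TAL1 (chr1:47232286-47232585, minus strand): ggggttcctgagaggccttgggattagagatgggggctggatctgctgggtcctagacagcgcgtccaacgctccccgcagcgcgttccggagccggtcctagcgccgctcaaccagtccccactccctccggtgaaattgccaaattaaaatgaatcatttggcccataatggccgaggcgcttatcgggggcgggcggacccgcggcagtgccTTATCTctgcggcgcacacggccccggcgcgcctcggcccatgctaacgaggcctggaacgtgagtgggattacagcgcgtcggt
ALAS2 (chrX:55030928-55031227, minus strand): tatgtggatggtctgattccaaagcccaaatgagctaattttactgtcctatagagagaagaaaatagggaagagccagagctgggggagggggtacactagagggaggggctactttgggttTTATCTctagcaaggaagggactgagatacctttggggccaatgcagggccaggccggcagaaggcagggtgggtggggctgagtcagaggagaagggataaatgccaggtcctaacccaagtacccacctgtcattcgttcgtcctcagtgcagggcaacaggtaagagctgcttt
EPOR (chr19:11384265-11384564, minus strand): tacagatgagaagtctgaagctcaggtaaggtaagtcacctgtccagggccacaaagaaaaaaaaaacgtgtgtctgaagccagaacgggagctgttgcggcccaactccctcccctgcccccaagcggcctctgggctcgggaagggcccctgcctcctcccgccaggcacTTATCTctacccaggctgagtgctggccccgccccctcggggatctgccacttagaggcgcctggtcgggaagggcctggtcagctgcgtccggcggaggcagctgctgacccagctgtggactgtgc
The motif begins 66 bases before the start in KLF1, 35 in TAL1, 127 in ALAS2 and 78 in EPOR. KLF1, TAL1 and ALAS2 were called higher under the XG1 label, and EPOR, the erythropoietin receptor, was not (1.65, 1.67 and 1.14 FPKM against 1.47, 1.63 and 3.09 FPKM, -0.27 ± 0.18, adjusted p = 0.200). The promoter of GATA1 itself held no match in this window.

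Globin genes, which encode the protein chains of hemoglobin, showed the widest gap of any erythroid list. Of 11, 9 were tested, 8 of them higher and 1 lower under the XG1 label, with a median of 6.35. The fetal gene HBG1 was at 1398, 1172 and 1225 FPKM under the XG1 label and at 1.12, 3.18 and 2.02 FPKM in AMO1. HBG2 was at 1022, 1019 and 942 FPKM against 2.11, 1.97 and 3.59 FPKM, and reads of these nearly identical genes may have been split between them. The alpha globin gene HBA2 was at 470.5, 528 and 482 FPKM against 0.117, 1.31 and 1.01 FPKM, and its near copy HBA1 at 98.5 ± 11.7 FPKM against 0.217 ± 0.162 FPKM, with the same uncertainty. The embryonic alpha-like gene HBZ was at 270.0, 356 and 329 FPKM against 1.11, 1.39 and 0.746 FPKM (7.26 ± 0.29, adjusted p = 2.02e-13). Adult beta globin, HBB, was at 23.7, 15.05 and 21.6 FPKM against 2.86, 1.31 and 0.401 FPKM. HBD, its minor adult neighbour, was at 252, 259 and 285 FPKM against 10.6, 12.0 and 4.36 FPKM. The embryonic epsilon gene HBE1 went the other way, at 47.0, 51.1 and 49.2 FPKM under the XG1 label and 103, 112 and 54.8 FPKM in AMO1 (-0.79 ± 0.20, adjusted p = 0.00155).

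Heme and iron genes were split. Of 22 tested, 9 were higher and 6 lower, with a median of 0.22, beside 28.3% higher and 34.4% lower among all genes tested. ALAS2, the erythroid form of the first enzyme of heme synthesis, was at 3.16, 1.77 and 2.84 FPKM against 0.115, 0.135 and 0.0947 FPKM (1.66), while ALAS1, the form of all cells, was not called (0.17). TFR2, an iron sensor of erythroid and liver cells, was higher (2.48 ± 0.16), as were ABCB10, a mitochondrial transporter (1.56), TFRC, the transferrin receptor (1.05), and UROD of the heme pathway (1.05). The ferritin chains diverged, with the heavy chain FTH1 higher (992 ± 46.8 against 461 ± 102 FPKM) and the light chain FTL lower (1590.1 ± 109 against 3413 ± 568 FPKM). HMOX1, which breaks heme down, was at 0.374, 0.189 and 0.187 FPKM against 10.0, 13.2 and 14.0 FPKM (-3.41 ± 0.21).

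Red cell surface and membrane genes were mostly higher. Of 25, 18 were tested, 14 of them higher and 2 lower, with a median of 1.53. Glycophorins are proteins that coat the red cell. The glycophorin gene GYPB was at 1060.1, 1000.0 and 1153 FPKM against 0.117, 0.865 and 2.35 FPKM, and GYPE was higher as well (6.45), though both belong to a family of near copies among which reads may have been split. RHAG, which carries the Rh complex, was at 116 ± 16.1 FPKM against 0.346 ± 0.102 FPKM (6.43). The membrane skeleton gene ANK1 (4.35) and the Kell-linked gene XK (3.87) followed. GYPC, the glycophorin that other blood cells also carry, was lower (96.6 ± 6.78 against 301 ± 105 FPKM), as was the carbonic anhydrase CA2 (-0.75), whose call ended without AMO1 replicate 3 (adjusted p = 0.0513). SLC4A1 (band 3), EPB42 and CA1, genes of late red cell precursors, and AHSP, the alpha globin chaperone, did not reach a mean of 1 FPKM in any group of the series and were not tested.

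**Figure D1:**
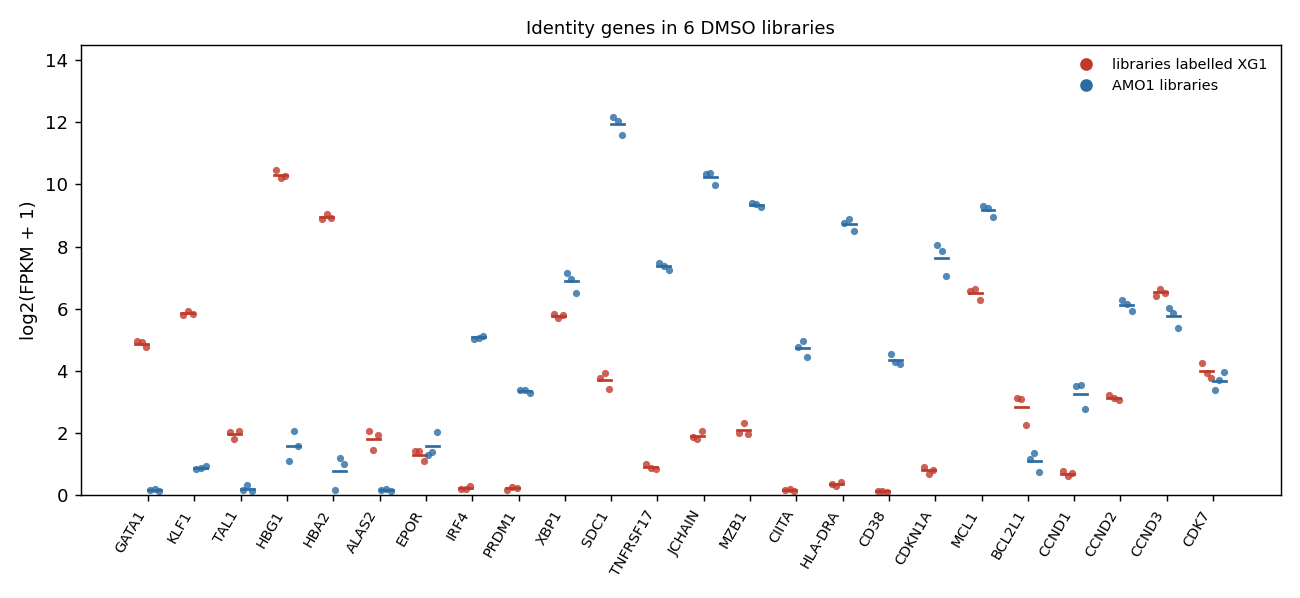
Points are single libraries and short lines are means of 3, with log2(FPKM + 1) on the y axis and genes of erythroid, plasma cell, cell cycle and survival identity on the x axis. GATA1, KLF1 and the globin genes are far higher in the libraries labelled XG1 (red), IRF4, SDC1 and JCHAIN are far higher in AMO1 (blue), and EPOR and CDK7 overlap.

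Genes of other blood lineages were mostly low, with a few exceptions. Of 19 granulocyte and monocyte genes 6 were tested and all 6 were higher under the XG1 label. They were the surface receptors CD33 (4.57), FCGR1A (4.54) and ITGAM (4.47), the transcription factors CEBPA (2.88) and SPI1 (2.08), and lysozyme, LYZ (2.86). In DMSO the AMO1 means of CD33, FCGR1A, ITGAM, CEBPA and LYZ were 0.115 to 0.289 FPKM. These genes passed the filter of 1 FPKM through the libraries labelled XG1, so the direction of their calls was largely set by it. CD33 was at 22.7, 30.8 and 23.8 FPKM against 0.116, 0.133 and 0.0952 FPKM. FCGR1A was at 33.0, 22.9 and 31.5 FPKM against 0.507, 0.135 and 0.225 FPKM, and ITGAM at 30.8, 26.6 and 22.7 FPKM against 0.330, 0.245 and 0.153 FPKM. The 8 markers of this lineage, which include LYZ but none of these 3 receptors, summed to 7.36 to 9.50 FPKM under the XG1 label and to 1.4 to 1.66 FPKM in AMO1. Whether other cells were present was not tested. The granule genes MPO, ELANE, PRTN3 and AZU1 were not tested, and 11 of the 19 were under 1 FPKM in all 6 libraries. Of 13 mast cell, basophil and eosinophil genes 3 were tested and 3 were higher, led by GATA2, a progenitor factor (37.0, 35.1 and 28.7 FPKM against 0.181, 0.136 and 0.138 FPKM). GATA2 and the list member CLC (AMO1 means of 0.152 and 0.115 FPKM in DMSO) also passed the filter through the libraries labelled XG1. Of 18 megakaryocyte and platelet genes 6 were tested, 3 of them higher and 1 lower. GP1BB, a platelet adhesion receptor chain, was at 99.0 ± 12.7 FPKM against 0.117 ± 0.0193 FPKM, a level near the floor. The lineage markers ITGA2B, GP9 and PPBP were not tested. FLI1, a megakaryocyte and lymphoid factor, was at 0.174, 0.259 and 0.218 FPKM against 12.1, 12.0 and 13.8 FPKM. Of 14 progenitor genes 6 were tested, with LYL1 (5.21), HHEX (2.85) and MECOM (2.19) higher and CD38 (-4.23), SOX4 (-1.06) and MEIS1 (-0.65) lower. MEIS1 was not called at 1000 nM (-0.36).

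HOX genes record position along the body axis and are used in blood progenitors. Of 24, 17 were tested, 10 of them higher and 6 lower. HOXB2 was at 55.7, 47.7 and 27.2 FPKM under the XG1 label and 0.256, 0.136 and 0.0970 FPKM in AMO1, and HOXC9 at 24.6, 26.0 and 22.2 FPKM against 0.118, 0.136 and 0.0970 FPKM. HOXC10 (3.12), HOXB3 (1.88) and HOXC6 (1.63) were higher as well. HOXD4 (-3.18), HOXC4 (-1.38) and HOXB7 (-1.36) were lower, so members of the HOXB and HOXC clusters went both ways. Without AMO1 replicate 2 the count of lower genes was 3.

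The plasma cell program stood on the AMO1 side. Of 15 plasma cell transcription factors 14 were tested, 12 of them lower and 1 higher under the XG1 label, with a median of -1.84. IRF4, on which myeloma cells depend, was at 0.148, 0.142 and 0.221 FPKM in the libraries labelled XG1 and 31.6, 32.6 and 34.2 FPKM in AMO1 (-4.85 ± 0.15, adjusted p = 5.69e-16). PRDM1, the repressor that ends the B cell program, was at 0.115, 0.210 and 0.183 FPKM against 9.45, 9.41 and 8.68 FPKM. POU2AF1, a coactivator of immunoglobulin genes, was at 0.172, 0.287 and 0.283 FPKM against 211, 222 and 143 FPKM (-7.25). None of the 3 genes had a library under the XG1 label above 0.5 FPKM. RUNX3 (-5.65) and POU2F2 (-2.75), the factor OCT2, were lower too. XBP1, the factor of the unfolded protein response, differed far less, at 55.7, 51.3 and 54.6 FPKM against 142, 124 and 90.5 FPKM (-1.10 ± 0.17, adjusted p = 9.96e-06). IKZF1, the target of the lenalidomide class of drugs, was not called (12.3 ± 1.59 against 11.7 ± 1.84 FPKM), while its relative IKZF3 was lower (-1.70). RUNX2, a bone factor, was the 1 gene higher (17.1 ± 1.85 against 3.46 ± 0.326 FPKM).

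All 19 tested members of 21 plasma cell surface and secretory genes were lower under the XG1 label, with a median of -2.88. SDC1 was at 12.6, 14.1 and 9.73 FPKM against 4658, 4241 and 3115 FPKM, and JCHAIN at 2.67, 2.49 and 3.16 FPKM against 1285, 1318 and 1016 FPKM. MZB1, a chaperone of antibody assembly, was at 3.02, 4.01 and 2.93 FPKM against 677, 661 and 613 FPKM. TNFRSF17, the target of BCMA therapies, was at 1.02, 0.824 and 0.806 FPKM against 176, 166 and 149.8 FPKM. The lines did not overlap for any of these 4 genes, which also held for 65.1% of all genes tested. FKBP11, a folding enzyme of secretory cells, followed (-5.28). PIM2, a survival kinase of myeloma, was still at 106 ± 2.37 FPKM against 1993 ± 641 FPKM (-4.16). The antibody targets SLAMF7 (-4.84) and CD38 (-4.23) were close to the bottom of the scale under the XG1 label.

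Of 22 B cell genes 8 were tested, 2 of them higher and 6 lower. CD79B, a chain of the B cell receptor, was at 0.115, 0.279 and 0.0924 FPKM against 142, 151 and 96.3 FPKM (-6.79). SPIB (-2.23), LY9 (-2.18) and BACH2 (-1.69) were lower and low in both lines. BTK, a kinase of B cell receptor signalling, was called higher (0.80) and lost its call without XG1 replicate 1 (adjusted p = 0.054). MS4A1 (CD20), PAX5, EBF1 and CD79A did not reach 1 FPKM as a group mean anywhere in the series. Of 19 T and NK cell genes 9 were tested, 2 of them higher and 6 lower, with CD7 (17.2 ± 3.40 against 0.253 ± 0.104 FPKM) the furthest apart.

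Antigen presentation was lower in both of its branches. Of 15 MHC class II genes all were tested, and 14 were lower and 1 higher, with a median of -3.44. The coactivator CIITA was at 0.113, 0.139 and 0.0881 FPKM under the XG1 label and 26.2, 30.3 and 20.7 FPKM in AMO1 (-4.57 ± 0.15, adjusted p = 1.22e-15). HLA-DRA was at 0.272, 0.221 and 0.348 FPKM against 437, 476 and 359 FPKM, and the invariant chain CD74 at 0.428, 0.613 and 0.472 FPKM against 429, 439 and 280.1 FPKM. The AMO1 libraries thus expressed the class II set. HLA-DQB1 (-5.45), HLA-DPA1 (-4.79) and the peptide exchange gene HLA-DMA (-4.74) followed. RFXAP, a subunit of the factor RFX, was higher (0.53), a call that ended without either of XG1 replicates 1 and 2 or AMO1 replicates 1 and 3 (adjusted p 0.0926 to 0.186), and it was called at neither dose.

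All 17 tested class I genes of 18 were lower, with a median of -2.80. HLA-B was at 3.81, 7.42 and 3.46 FPKM against 1454, 1283 and 1162 FPKM, and HLA-C was lower too (-6.86). HLA genes vary between people, and how far reads of other alleles align to the reference was not tested. B2M, the light chain of class I, was at 638, 624 and 523 FPKM against 3050.4, 3010.0 and 2875 FPKM, and the immunoproteasome gene PSMB8 at 5.63, 5.65 and 5.49 FPKM against 233, 226 and 169 FPKM. The peptide transporter TAP1 (-4.11) and NLRC5, the class I coactivator (-2.60), followed. Of 22 interferon response genes 12 were tested, 7 of them lower, led by ISG20 (-4.54) and BST2 (-2.05), and 3 higher, IRF7 (1.07), IFIT1 (0.97) and IFIT3 (0.87). The 3 higher calls were absent at both doses.

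The secretory pathway followed in part. Of 20 genes for folding in the endoplasmic reticulum and the unfolded protein response 17 were tested, 14 of them lower and 0 higher, with a median of -1.47. HSPA5 (BiP), the main chaperone of that compartment, was at 203, 184 and 193 FPKM against 959, 961 and 569 FPKM (-2.06 ± 0.17). PDIA6 (-2.20) and CRELD2 (-2.45) were lower by a similar amount, SEL1L, an adaptor of protein disposal, by more (-2.72), and ATF6, a stress sensor, was not called (0.03). Of 25 secretory transport genes 11 were lower and 6 higher, with a median of -0.26. SEC61A1, the channel through which new proteins enter, was at 23.2, 23.9 and 20.1 FPKM against 250.2, 259 and 142 FPKM. Genes of this entry step went both ways, with SRPRB (-2.51) and SSR2 (-2.40) lower and SRP54 (0.91) and SPCS2 (0.79) higher. Genes of later traffic did so too, with SEC22B (1.94) and KDELR3 (1.41) higher and KDELR1 lower (-2.10). The chart of gene lists sets shares of all members, tested or not, beside the shares of all genes tested.

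**Figure D2:**
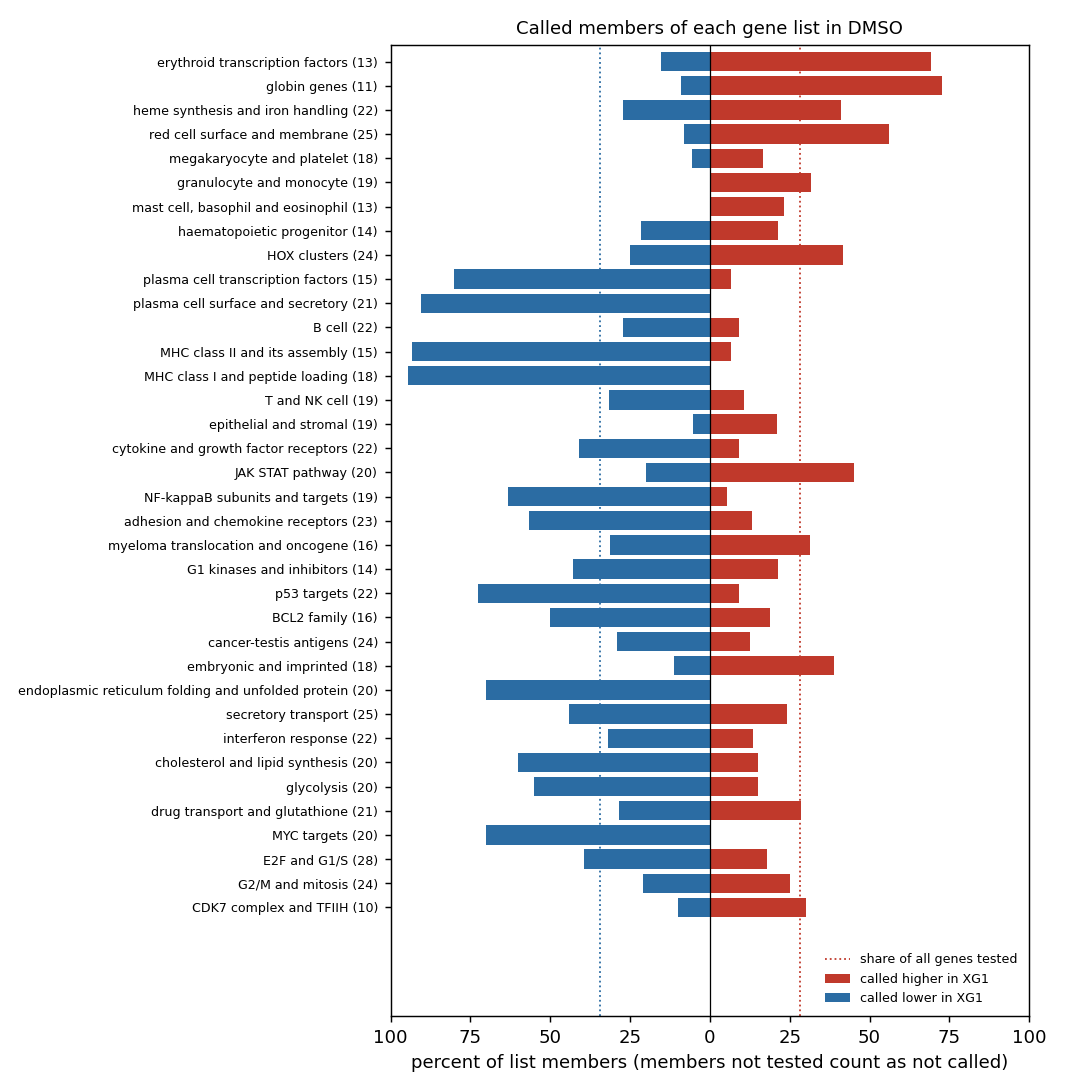
Bars give the percent of each list's members called higher (red, to the right) or lower (blue, to the left) under the XG1 label, with the number of members in parentheses, and dotted lines mark the 28.3% and 34.4% of all genes tested. Members not tested count as not called in the bars, so lists with few tested members have short bars. Globin and erythroid factor lists reach far right of the line, and plasma cell, MHC, p53 target and endoplasmic reticulum lists far left of it.

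More cytokine and growth factor receptors were lower than higher under the XG1 label, which also held for all genes tested (34.4% lower, 28.3% higher). Of 22 receptor genes 16 were tested, 9 of them lower and 2 higher. The lower count was 5 under a minimum mean of 5 FPKM. IL6R, the receptor of the main myeloma growth factor, was at 0.714, 0.896 and 1.14 FPKM against 3.47, 3.75 and 1.998 FPKM (-1.07), and its partner IL6ST was not called (0.38). IL21R (-2.99), INSR (-2.95) and TNFRSF1B (-2.82) were lower. TNFRSF1A (2.17) and FGFR3 (2.04) were higher.

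JAK kinases and STAT factors carry the signal of many such receptors. Of 20 JAK-STAT genes 9 were higher and 4 lower in the libraries labelled XG1, with a median of 0.44. STAT5A was at 24.2, 26.9 and 21.2 FPKM against 2.07, 2.44 and 2.05 FPKM (2.97 ± 0.17, adjusted p = 7.94e-12), and its paralogue STAT5B at 7.74 ± 1.52 against 4.43 ± 0.121 FPKM (0.67). The feedback inhibitor CISH was at 54.6, 49.4 and 41.5 FPKM against 1.41, 0.878 and 0.879 FPKM. SOCS1 was at 73.7, 61.0 and 44.3 FPKM against 1.06, 1.98 and 2.17 FPKM, and SOCS2 at 81.4, 73.8 and 56.2 FPKM against 2.99, 2.78 and 5.09 FPKM. The groups did not overlap for any of the 3 inhibitors, which also held for 65.1% of all genes tested. The PIM kinases, which support survival, divided, with PIM1 at 385 ± 80.0 against 33.0 ± 7.53 FPKM and PIM3 at 41.9 ± 3.66 against 303 ± 85.5 FPKM, beside PIM2 above. Lower were PTPN6 (-3.38), the phosphatase SHP-1, and JAK3 (-1.35), while STAT3 was not called (-0.13).

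NF-kappaB genes were lower, 12 of 17 tested against 1 higher, with a median of -1.02. BIRC3, an inhibitor of cell death and of noncanonical signalling, was at 0.979, 0.532 and 0.629 FPKM against 29.2, 32.5 and 23.3 FPKM (-4.09). RELB (-2.70) and MAP3K14, the kinase NIK (-2.21), belong to the same branch. TNFAIP2 was the 1 higher gene (3.97). Of 23 adhesion and chemokine receptor genes 19 were tested, 13 of them lower and 3 higher. CXCR4, which holds plasma cells in bone marrow, was at 0.348, 0.575 and 0.373 FPKM against 126, 134 and 95.8 FPKM. ICAM2 (-5.17) and ITGB7 (-4.24) were lower, and ITGB2, the common chain of leukocyte integrins, was far higher (82.5, 93.7 and 101 FPKM against 0.186, 0.308 and 0.324 FPKM). Its partner ITGAM is among the myeloid genes above, whereas the lymphoid partner ITGAL was lower (-1.37).

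The D cyclins, which start the cell cycle, divided between the lines. Cyclin D3, CCND3, was at 84.7, 99.2 and 90.5 FPKM under the XG1 label and 63.5, 57.5 and 40.9 FPKM in AMO1 (0.77 ± 0.15, adjusted p = 1.67e-04). CCND2 was at 8.26, 7.69 and 7.29 FPKM against 76.3, 70.9 and 60.5 FPKM (-3.00), and CCND1 at 0.697, 0.537 and 0.633 FPKM against 10.3, 10.6 and 5.80 FPKM (-2.57). The sole D cyclin on the XG1 side was thus CCND3. Of 14 genes for G1 kinases and inhibitors 13 were tested, 3 of them higher and 6 lower. CDKN1A (p21), the inhibitor induced by p53, was at 0.870, 0.615 and 0.751 FPKM against 263, 229 and 131 FPKM, and CDKN2A at 0.487, 0.0881 and 0.234 FPKM against 42.8, 39.7 and 44.2 FPKM. MTAP, the gene next to CDKN2A, was at 0.152, 0.0871 and 0.117 FPKM against 7.16, 7.32 and 4.33 FPKM. The imprinted inhibitor CDKN1C (p57) was on the opposite side, at 23.1, 25.1 and 21.0 FPKM against 0.599, 0.434 and 0.412 FPKM. CDK4 was higher (1.08) and the cyclin gene CCNE1 lower (-1.56). After centring on medians or quantile normalization 6 genes of this list were higher.

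Most genes of the p53 target list were lower. Of 22 genes 21 were tested, 16 of them lower and 2 higher, with a median of -1.68. PHLDA3, an inhibitor of AKT, was at 0.192, 0.145 and 0.0916 FPKM against 92.6, 97.3 and 55.7 FPKM (-6.14 ± 0.19, adjusted p = 4.56e-16). MDM2, the ligase that degrades p53, was at 10.4 ± 0.672 against 66.7 ± 13.2 FPKM. TIGAR (-2.91), AEN (-2.55) and DDB2 (-2.38) were lower as well. GADD45A (1.01) and ZMAT3 (0.76) were higher in DMSO, but ZMAT3 was called at neither dose, and GADD45A was not called at 100 nM (0.32) and was lower at 1000 nM (-0.91).

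The survival genes of the BCL2 family also divided. Of 16, 14 were tested, 3 of them higher and 8 lower. BCL2L1 (BCL-XL) was at 7.74, 7.61 and 3.78 FPKM under the XG1 label and 1.26, 1.56 and 0.671 FPKM in AMO1 (1.74 ± 0.28, adjusted p = 1.80e-05). MCL1, on which plasma cells rely, was at 94.4, 99.1 and 76.0 FPKM against 632, 608 and 493 FPKM, and BCL2 at 2.99, 2.16 and 1.59 FPKM against 8.19, 9.95 and 7.41 FPKM. Among the genes that promote death, BIK was at 2.03, 0.279 and 0.648 FPKM against 102, 103 and 72.3 FPKM, and BAK1 (-2.48), BAX (-1.72) and BBC3 (-1.68) were lower. The plot of paralogues shows these families library by library.

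**Figure D3:**
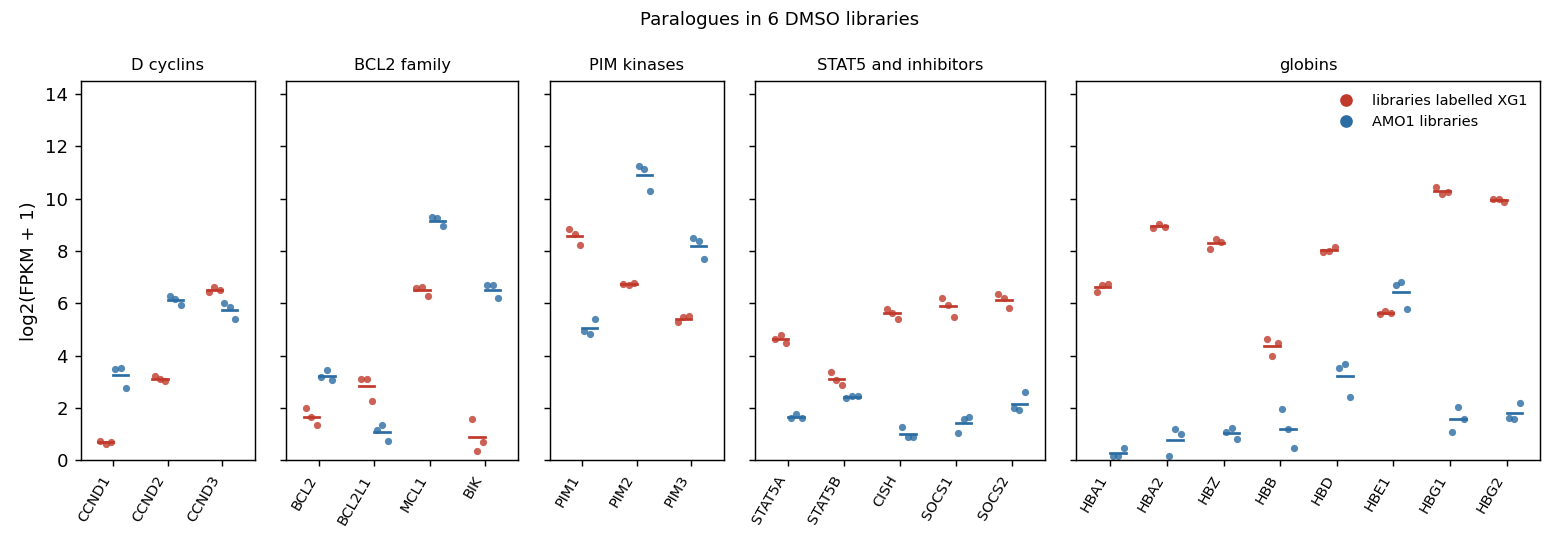
Points are single libraries and short lines are means of 3, with log2(FPKM + 1) on the y axis, red for the libraries labelled XG1 and blue for AMO1. CCND3, BCL2L1, PIM1, STAT5A, CISH, SOCS1 and SOCS2 lie higher under the XG1 label, CCND1, CCND2, BCL2, MCL1, BIK, PIM2 and PIM3 lie lower, and HBE1 is the 1 globin gene that lies higher in AMO1.

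Genes of early development and the germ line were used differently. Of 18 embryonic and imprinted genes 9 were tested, 7 of them higher and 2 lower, with a median of 3.54. DLK1 was at 604, 644 and 554 FPKM against 0.255, 0.820 and 1.24 FPKM, and MEG3, a noncoding RNA of the same imprinted locus, at 55.9, 57.0 and 50.7 FPKM against 0.118, 0.187 and 0.295 FPKM. H19, another imprinted noncoding RNA, was at 191, 234 and 221 FPKM against 0.852, 0.598 and 0.338 FPKM. The RNA-binding proteins IGF2BP1 (3.85) and IGF2BP2 (3.16) were higher, and PEG10 (-3.96) and MEST (-3.56), both imprinted, were lower. Of 24 cancer-testis genes 14 were tested, 3 of them higher and 7 lower. PRAME was at 318, 342 and 364 FPKM against 45.8, 51.7 and 30.8 FPKM, MAGEC1 was higher (2.06), and BAGE (-4.17), MAGEB2 (-3.63) and CTAG1B (-2.40) were lower. Several of these families hold near copies, among which reads may have been split. Of 16 myeloma translocation and oncogene genes 14 were tested, 5 in each direction, with LIN28B (2.05) and NRAS (1.66) higher. Among all genes tested 28.3% were higher and 34.4% lower, so these counts are not particular to the list. Of 19 epithelial and stromal genes 5 were tested, 4 of them higher, EPCAM at 47.0, 32.9 and 32.8 FPKM and KRT18 at 53.2, 55.3 and 59.2 FPKM against 0.115, 0.129 and 0.257 and 1.96, 2.75 and 1.79 FPKM. The summed level of the 8 epithelial and stromal markers was 96.1 to 104.4 FPKM against 4.34 to 6.47 FPKM.

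Of 20 genes regulated by the factor MYC 19 were tested, 14 of them lower and 0 higher, with a median of -0.61, led by ODC1 of polyamine synthesis (-1.95) and the nucleolar gene NCL (-1.49). Of 20 glycolysis genes 11 were lower and 3 higher, with a median of -0.61. The muscle-type phosphofructokinase PFKM was at 4.54 ± 0.239 against 47.6 ± 8.17 FPKM, and HK1 (1.81) and HK2 (-1.43), paralogues for the first step, went opposite ways. Of 20 cholesterol and lipid genes 12 were lower, among them INSIG1 (-2.83) and HMGCS1 (-2.43), and 3 were higher. After quantile normalization the higher counts were 2 for MYC targets, 6 for glycolysis and 5 for cholesterol. Of 18 tested genes for drug transport and glutathione 6 went each way, with GSTT1 (29.1, 35.4 and 27.0 FPKM against 0.116, 0.130 and 0.357 FPKM) and CAT (2.06) higher. The 28 genes of the E2F and G1/S list had a median of -0.02, with 11 lower and 5 higher, CDC45 (2.34) and POLE2 (2.38) furthest up and E2F2 (-2.31) and RRM2 (-2.29) furthest down. The 24 genes for G2/M and mitosis had a median of 0.19, with 6 higher and 5 lower. Among all genes tested 28.3% were higher and 34.4% lower, so counts near these shares are not particular to a list. After quantile normalization the E2F list turned, to 10 higher and 5 lower, and the mitosis list had 13 higher and 4 lower. Without XG1 replicate 3 or AMO1 replicate 1 or 2 the count of lower E2F genes was 6 or 7, and without XG1 replicate 1 or 3 or AMO1 replicate 2 that of lower mitosis genes was 3. In the mitosis list UBE2C, which loads ubiquitin on mitotic proteins, was at 1.66, 7.80 and 5.02 FPKM against 821, 898 and 707 FPKM (-7.27), whereas its partner CDC20 differed by -0.40, a call that ended without any 1 of the XG1 replicates or AMO1 replicates 1 and 2 (adjusted p 0.066 to 0.203). Of the 10 genes of the CDK7 complex and TFIIH, the general transcription factor that holds the inhibitor's target, 3 were higher and 1 lower. CDK7 was not called (18.1, 14.3 and 12.6 FPKM against 9.36, 12.0 and 14.7 FPKM, 0.30 ± 0.20, adjusted p = 0.193). CCNH, its cyclin, was higher (0.72), a call that ended without any 1 of XG1 replicates 1 and 2 or AMO1 replicates 1 and 2 (adjusted p 0.091 to 0.0983).

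The lines were also compared in the 12 libraries exposed to YKL-5-124. These libraries entered the same fit, so the 3 comparisons share its variance estimates and its set of tested genes. At 100 nM 7937 genes (65%) were called between the lines and at 1000 nM 7579 (62.1%). Of the 1784 genes higher by 2-fold or more in DMSO, 1740 (97.5%) were called higher at 100 nM and 1700 (95.3%) at 1000 nM. Of the 2373 lower genes, 2270 (95.7%) and 2284 (96.2%) were called lower. Of the 25 identity genes 23 were called in DMSO, and all 23 had the same call at both doses, which is near the shares above and not particular to them. The list calls that did not recur were mostly small ones, such as PMAIP1 (0.56 in DMSO, -0.07 and -0.23 at the doses) and HOXB9 (0.75, -0.02 and 0.13). In presence and absence terms, 142 genes were at 10 FPKM or more in every library labelled XG1 and under 1 FPKM in every AMO1 library, and 134 the reverse. Of these, 103 and 86 met the same limits at 100 nM and 78 and 91 at 1000 nM.

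**Figure D4:**
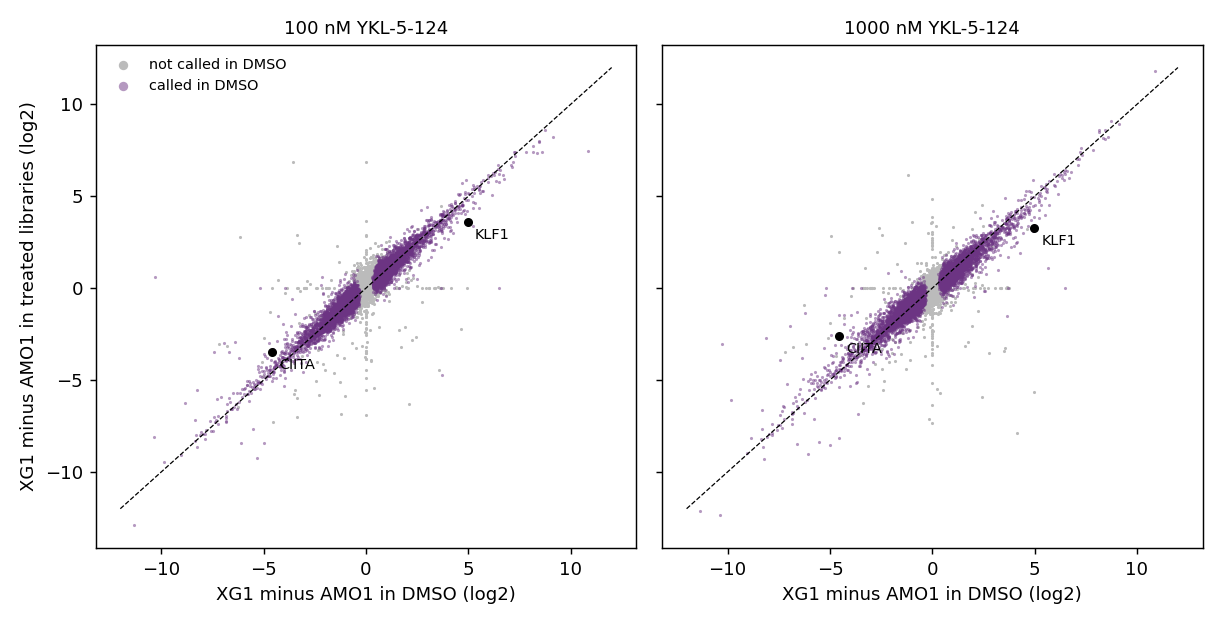
Each point is 1 of 12204 genes, with the difference between the lines in DMSO on the x axis and at 100 nM (left) or 1000 nM (right) on the y axis, in log2, and the dashed line marks equal differences. Genes called in DMSO (purple, 7652) lie along the line at both doses, and KLF1 and CIITA lie closer to 0 at 1000 nM than in DMSO.

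A change of the line difference between DMSO and 1000 nM was called for 83 genes (0.68%). KLF1 and CIITA were the identity genes among them. The difference of KLF1 went from 4.97 in DMSO to 3.58 at 100 nM and 3.25 at 1000 nM, and that of CIITA from -4.57 to -3.49 and -2.62. The level in the line that expressed the gene was lower at 1000 nM, for KLF1 at 14.4 ± 2.42 FPKM under the XG1 label and for CIITA at 5.70 ± 0.118 FPKM in AMO1. GATA1 was at 4.16 and IRF4 at -4.04 at 1000 nM, beside 4.72 and -4.85 in DMSO.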

How the data were processed

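RNA of 18 libraries was measured by the QuantSeq 3′ end method, and the 6 DMSO libraries were compared. The labels gave each library's group and replicate number. The authors worked with HISAT2 and Cuffnorm on build hg19, per the submitters' processing notes, which give no versions. The deposited values are taken as FPKM because Cuffnorm gives that unit, since the headers say only expression. FPKM corrects for a length that 3′ end reads do not depend on, so a gene is compared between libraries and not with other genes. Strand use in counting is not stated, so overlapping and antisense genes cannot be told apart.

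Each table held 26249 genes and 92 spike-ins, with no value of 0 and many genes at the floor of their library. A gene was tested if the mean of any of the 6 groups reached 1 FPKM (12204 genes), using limma 3.58.1 (R 4.3.3, statmod 1.5.0; trend and robust) on log2(FPKM + 1), with 1 mean per group in 1 fit of all 18 libraries, two-sided, Benjamini-Hochberg adjustment over all genes and a threshold of 0.05. The test was tried on simulated data. The values show no counts, so depth is unknown and no counting interval was set. Correlations between libraries are across genes, which are not independent replicates.

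The comparison and its 36 gene lists (683 genes) were chosen with earlier results of these data known, so list counts are descriptions without a list test. Genes were named by rule: the 15 largest called differences per direction without overlap, up to 5 called members per list and direction, and 25 identity genes. Other list members were named after their values were seen. Small RNA and uncharacterised loci (330 of the called genes) were not named, and a few named genes are not reported here. Promoters came from the RefSeq table for GRCh38.p14. Alternatives changed the pseudocount, filter, scaling, libraries in the fit, variance model, call rule and replicate block.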

Additional observations from a re-analysis of the deposited data

Results flagged for a closer look

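For 2 identity genes the difference between the lines changed from DMSO to 1000 nM in a test of the change itself (limma, over the 12204 genes tested). KLF1, the erythroid globin activator, changed by -1.72 ± 0.29 log2 (SE, adjusted p = 0.00598). In the libraries labelled XG1 it was at 56.8 ± 2.43 FPKM in DMSO, 18.7 ± 3.41 at 100 nM and 14.4 ± 2.42 at 1000 nM, and in AMO1 at 0.840 ± 0.0535, 0.676 ± 0.459 and 0.633 ± 0.416 FPKM (SD, n = 3). CIITA, the coactivator of MHC class II genes, changed by 1.95 ± 0.22 log2 (SE, adjusted p = 0.000118). In AMO1 it was at 25.7 ± 4.85 FPKM in DMSO, 11.8 ± 0.593 at 100 nM and 5.70 ± 0.118 at 1000 nM, and in the libraries labelled XG1 at 0.113 ± 0.0256, 0.1401 ± 0.0641 and 0.0875 ± 0.0173 FPKM. Each gene is near the bottom of the scale in the other line.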

How the results depend on the processing

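In DMSO the counts of higher and lower genes stayed within 1.5 times of 3458 and 4194 under every alternative except the test against a 2-fold difference, which called 916 higher and 1268 lower. Spike-in scaling gave 3563 higher and 4046 lower genes, and it could move little since the spike-in sums were already alike. With a pseudocount of 5, 829 genes were higher and 1393 lower by 2-fold or more. Leaving out 1 library gave 3023 to 3536 higher and 3610 to 4678 lower genes, where a group of 2 libraries takes its spread from the pooled fit. The share of called genes that were higher, 45.2%, lay between 39.9% (without AMO1 replicate 3) and 51.6% (quantile normalization). At 100 nM a minimum mean of 5 FPKM, which leaves 8150 genes to test, gave 2545 higher genes. The 40 higher and 43 lower changes of the line difference became 9 and 18 with a pseudocount of 0.1, 111 and 90 with 5, 85 and 106 after centring on medians, and 112 and 104 after quantile normalization, and 28 were lower with no filter. The cause was not tested. With the replicate number as a block 7542 genes were called in DMSO in place of 7652, and 28 changes of the line difference were lower. No pairing by number was seen: deviations of same-numbered libraries correlated at -0.146, -0.048 and -0.207, and 0 libraries correlated best with their own number. With so few libraries this check cannot exclude that same-numbered libraries were prepared together. Of 272 named genes 0 reversed, 85 lost their call against a 2-fold difference, and 13 lost it under another alternative. Small lists lost members under the minimum of 5 FPKM because fewer genes were tested, such as red cell membrane genes (9 higher in place of 14). Depth is unknown, and spike-ins that should not differ had a between-line SD of 0.535 log2, so small differences are less firm than their p values say.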

Other observations

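Some of the differences lay side by side on the genome. Among 11665 genes that could be placed by their neighbours in the RefSeq table (GRCh38.p14, used for order only), 86 runs of 4 or more neighbouring tested genes were all called in 1 direction by 2-fold or more, 48 of them lower and 38 higher under the XG1 label. Of all genes tested 14.6% were higher and 19.4% lower by 2-fold or more. How many runs these shares alone would give was not tested. The longest run, 12 genes lower, held HLA-DRB1, HLA-DQA1, TAP1, TAP2, PSMB8, PSMB9 and HLA-DMA of antigen presentation. The globin genes HBB, HBD, HBG1 and HBG2 with HBBP1 formed a run of 5 higher genes. SDC1 lay in a run of 8 lower genes from GEN1 to PUM2, MCL1 in a run of 7 with ENSA, CTSS, ARNT and SETDB1, and PIM2 in a run of 6. CDKN2A and MTAP lay in a run of 7 lower genes from KLHL9 to IFT74 with a median of -2.67. HINT1 lay in a run of 7 higher genes from SLC27A6 to FNIP1 with a median of 3.09. ABL1 and NUP214 lay in a run of 6 higher genes with a median of 1.27. ABL1, an oncogene kinase, was at 46.0, 40.9 and 33.2 FPKM under the XG1 label and 6.70, 6.20 and 6.07 FPKM in AMO1 (2.47 ± 0.16, adjusted p = 4.81e-11). These runs were picked after their values were seen and carry no test, and tested neighbours need not adjoin on the chromosome.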
